A study of Mus musculus with 2 samples.

Results

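Proliferating cells outside the cDC1 lineage of dendritic cells (DC) were examined in single-cell RNA-seq data of mouse spleen. The cells were selected on 4 cell cycle genes: a cell was a member when its raw unique molecular identifiers (UMIs, 1 per captured transcript) of Top2a, Mki67, Birc5 and Pclaf summed to at least 4. Members also had fewer than 2 UMIs of the cDC1 genes Xcr1 and Clec9a together, fewer than 5 of the plasmacytoid DC gene Siglech and fewer than 10 of the neutrophil genes S100a8 and S100a9 together. The rule required no DC gene. It gave 835 of 19339 cells, 281 from WT and 554 from H2-Aa cit/cit mice (cit).

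The study asked how the citation (cit) allele of H2-Aa, the gene of the MHC class II α chain, affects DC. One library held DC of naive H2-Aa +/+ (WT) mice and the other DC of naive H2-Aa cit/cit mice, and each library pooled 3 female mice aged 4 months. Splenocytes were enriched on CD11c, and live CD45.2+ CD11c+ cells were sorted for 10X Genomics 3' libraries. With 1 library per genotype, no replicate spread was available, no test between genotypes was made, and each interval below is a 95% interval that covers counting error only.

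Conventional DC of the spleen arise from bone marrow precursors that seed the organ and still divide there, so that a fraction of cDC1 and cDC2 is in cycle at any time. cDC1 depend on Irf8 and carry Xcr1 and Clec9a, whereas cDC2 carry Sirpa and include Notch2-dependent cells. In a dividing cell, replication genes such as the MCM helicase subunits and Pcna peak before and during S phase, and mitotic genes such as Cenpf, Ube2c and Ccnb2 peak in G2 and mitosis.

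Members were deep cells. The WT library held 51020804 UMIs in 7814 cells and the cit library 72652201 UMIs in 11525 cells. The median member had 8805 UMIs in WT and 8520 in cit, with ranges of 506 to 56908 and 529 to 118560. They were set beside resting counterparts, cells that met the same 3 lineage limits with no UMI of the 4 cycle genes (5528 in WT and 8191 in cit), whose medians were 4656 and 4977 UMIs. Of 31 barcodes found in both libraries, 2 were members in WT and 2 in cit, and none was a member in both.

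Members made up 3.60% of all WT cells (3.19 to 4.03%) and 4.81% of all cit cells (4.42 to 5.21%). The share was therefore 1.21 percentage points higher in cit, with an interval of 0.635 to 1.77 that excluded 0. Among cells with at least 2 UMIs of Xcr1 and Clec9a, which pass through the same sort, 8.85% (71 cells) in WT and 9.55% (84 cells) in cit met the cycle limit. That difference of 0.693 points had an interval of -2.11 to 3.46, which held both 0 and the 1.19 points of members. Sorted cells and pooled spleens leave no count of cells per mouse, and a larger share cannot be told apart from fewer cells of other kinds.

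The 4 selection genes describe the rule and not a result. Top2a, a DNA topoisomerase, had a UMI in 91.5% of WT and 88.1% of cit members, and Mki67, a chromosome surface protein, in 86.8% and 88.3%. Pclaf, which binds PCNA, was seen in 75.4% and 79.1%, and Birc5, the survivin subunit of the chromosomal passenger complex, in 63.7% and 68.4%. Sums of 20 or more UMIs were reached by 34.5% of WT and 37.7% of cit members.

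Cells on either side of the limit were described by genes outside the rule. The 38 WT and 52 cit cells with exactly 4 cycle UMIs carried 5360 and 7720 UMIs per 1000000 (CPM) of an S phase and a G2/M gene list that share no gene with the rule. The 50 and 90 cells just outside, with 3 cycle UMIs, carried 4189 and 4229 CPM. In UMIs per cell the medians of these lists were 41.5 and 46.5 inside and 21 and 23 outside. All members together stood at 14464 and 13455 CPM, and resting counterparts at 1705 and 1765 CPM. Stmn1, which destabilizes microtubules and was not part of the rule, had a UMI in 83.3% of WT and 84.1% of cit members, against 7.83% and 9.71% of resting counterparts.

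Members carried genes of conventional DC, and most had UMIs of cDC2 genes. Flt3, the receptor of the DC growth factor, had a UMI in 68.3% of WT and 73.5% of cit members, and Zbtb46, a transcription factor of conventional DC, in 64.4% and 65.0%. After thinning every cell to 1500 UMIs, 25.4% and 27.5% of members had a UMI of Flt3, against 0% of 29 WT and 5.56% of 18 cit cells with NK genes, which should lack it (medians of 4429 and 3453 UMIs before thinning). Genes shared by conventional DC (with Itgax, Dpp4, Cd74, Batf3, Btla and Kmo) summed to at least 3 UMIs in 279 of 281 WT and all 554 cit members, but Cd74, which other cells also carry, gave 29403 of their 34086 and 62261 of their 71302 UMIs. A list of cDC2 genes reached 3 UMIs in 69.4% of WT (63.6 to 74.7%) and 80.7% of cit members (77.1 to 83.9%). Resting counterparts, which were shallower, reached it in 55.4% and 69.4%, while its summed level was 931 and 1086 CPM in members and 963 and 1293 CPM at rest. Proliferating cells with cDC1 genes, whose median was 19143 UMIs in WT and 19373 in cit, reached it in 45.1% and 63.1% at 225 and 516 CPM.

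A Notch2-dependent cDC2 list and one of Ccr2 and Mgl2 were read by share of cells and by level, since the cells compared differed in depth. The first was reached by 65.1% and 65.7% of members and by 76.1% and 63.1% of the deeper proliferating cells with cDC1 genes, and the second by 64.8% and 63.0% against 56.3% and 84.5%. Per UMI their summed levels in members were 645 and 667 CPM against 573 and 414 CPM for the first, and 786 and 640 CPM against 295 and 473 CPM for the second. Resting counterparts stood above members in both, at 956 and 857 CPM for the first and 1272 and 1044 CPM for the second. Of the genes measured, 2 of 5 in the first list and 2 of 3 in the second were at least 1.5-fold lower in members of both libraries than at rest and none higher, against 5.73% and 12.4% of all genes.

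Sirpa, the inhibitory receptor that separates cDC2 from cDC1, stood at 293 CPM for WT members and 245 CPM for cit members, near the 344 and 325 CPM of resting counterparts. Proliferating cells with cDC1 genes held 43.9 and 122 CPM. After the same thinning, Sirpa was found in 32.8% and 28.7% of members, and in 6.90% or less of the cells with NK genes. Thinning left out 13 members of each library.

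Single genes of the cDC2 lists could lie on the other side of rest. Ffar2, a receptor for short-chain fatty acids, was at 247 and 273 CPM in members against 159 and 239 CPM in resting counterparts. Dtx1, a Notch target, was at 137 and 122 CPM against 112 and 102 CPM. Both were low in proliferating cells with cDC1 genes, at 31.8 and 109 CPM for Ffar2 and 8.33 and 34.0 CPM for Dtx1.

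Within the list named for Ccr2 and Mgl2, neither name gene carried the signal. Ccr2, a chemokine receptor, was at 9.32 and 17.3 CPM in members, and Mgl2, a lectin, at 0.717 and 4.51 CPM. The list was reached mainly through Tmem176b (317 and 242 CPM), Tmem176a (275 and 186 CPM) and Cd7 (166 and 161 CPM), and 52.3% and 48.6% of members passed both this list and the Notch2-dependent one. The lists therefore did not divide the members into separate groups.

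Of 19 lineage transcription factors measured, none was at least 1.5-fold higher than at rest in members of both libraries and 3 were at least 1.5-fold lower, against 12.4% and 5.73% of all genes measured. Tbx21, which encodes T-bet and marks a fraction of cDC2, was at 58.8 CPM in WT members and 42.2 CPM in cit members, against 17.2 and 16.2 CPM at rest. Its log2 ratio of members over resting counterparts was 1.77 in WT (1.51 to 2.03) and 1.38 in cit (1.16 to 1.60). It was not among the 19, since in cit it did not reach the 50 CPM that defined a measured gene. A list of NK cell genes also stood above rest in members, at 175 against 56.0 CPM in WT and 76.8 against 18.5 CPM in cit. Its part in the Tbx21 ratios was not tested. Irf8, required for cDC1, was at 46.3 and 37.9 CPM in members against 1385 and 1107 CPM in proliferating cells with cDC1 genes. Zeb2, which restrains the cDC1 fate, was at 542 and 463 CPM against 96.9 and 211 CPM.

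**Figure D1:**
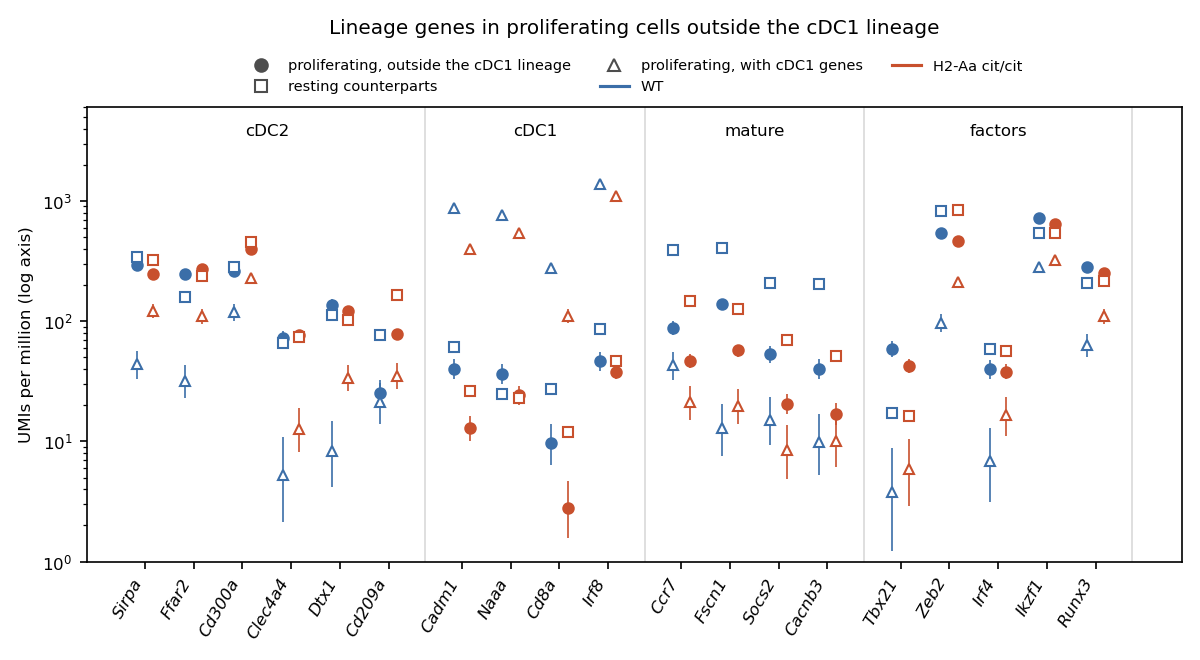
Levels of lineage genes in CPM on a log axis, with filled circles for proliferating cells outside the cDC1 lineage, squares for their resting counterparts, triangles for proliferating cells with cDC1 genes, blue for WT and red for cit. Lines are 95% Poisson intervals of the summed UMIs. Circles lie near squares for Sirpa, far below triangles for Irf8, and above squares for Tbx21 (58.8 against 17.2 in WT).

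Few members carried cDC1 genes outside the rule. Cadm1, Naaa, Tlr3, Itgae, Gcsam, Snx22, Ifi205 and Cd8a summed to at least 3 UMIs in 24 WT (8.54%) and 30 cit members (5.42%). Cadm1, an adhesion molecule of cDC1, was at 40.2 and 13 CPM in members against 875 and 399 CPM in proliferating cells with cDC1 genes. Kit, a receptor of early progenitors that splenic DC also carry, was at 143 and 159 CPM, close to the 150 and 161 CPM at rest, whereas Cd34 had 7 and 4 UMIs in all.

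Genes of mature, migrating DC were less frequent in members than at rest and less frequent in cit than in WT. Ccr7, Fscn1, Socs2, Cacnb3, Ccl22, Nudt17 and Apol7c summed to at least 3 UMIs in 23.8% of WT (19 to 29.3%) and 10.5% of cit members (8.05 to 13.3%), against 34.0% and 16.9% at rest. Without the cells of highest Scrublet doublet score, which made up 13.5% of WT and 13.9% of cit members and 5.66% and 7.79% of resting counterparts, the shares in members were 16.5% and 6.29%. Ccr7, the receptor that guides DC into T cell zones, was at 87.9 and 46.8 CPM in members and 389 and 148 CPM at rest. All 5 genes of the list that were measured in this comparison lay at least 1.5-fold lower in members of both libraries, where 5.73% of all genes did. The limit of 50 CPM could be met through resting cells alone. In cit it was so met by Ccr7 and by Socs2 (20.5 CPM in members, 70.1 CPM at rest).

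Other lineages were rare but some of their cells were rich. At least 1 of 12 lists of other cell types reached 3 UMIs in 21.4% of WT and 15.9% of cit members, and without a list named for the monocyte genes Ace and Fabp4 these shares were 10.7% and 4.51%. That list was reached mainly through Eno3, a muscle-type enolase at 62.4 and 46.4 CPM (107 and 58.4 CPM at rest), while Ace and Fabp4 had 10 and 17 UMIs in WT and 45 and 2 in cit. At list limits of 2 and 5 UMIs in place of 3, the shares with any of the 12 lists rose and fell by more than 1.5-fold.

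Single cells decided several of these lists. One cit member held 98.9% of the 565 UMIs of granulocyte progenitor genes, among them 98.8% of those of Prtn3, a granule protease. A pair of WT members held the megakaryocyte signal, 471 UMIs of the platelet chemokine Pf4, and 1 WT member held 96.3% of the 81 UMIs of Jchain. NK genes reached 3 UMIs in 3 WT and 5 cit members, with Gzma, a granzyme, at 324 and 183 UMIs. No member reached 3 UMIs of 6 neutrophil genes, which allows a share of up to 1.07% in WT and 0.542% in cit, though the rule had removed cells rich in S100a8 and S100a9. T cell genes reached 3 UMIs in 5 and 7 members, B cell genes in 7 and 11 and macrophage genes in 6 and 1, while genes of plasmacytoid DC reached it in 3.91% and 6.32%.

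Members were next placed along the cell cycle by the share of G2/M list UMIs among the UMIs of both cycle lists (43 S and 51 G2/M genes, none in the rule). A share under 0.333 was called S-weighted and one over 0.667 G2/M-weighted, which are ranges of a score and not cell types. S-weighted cells made up 10.7% of WT (30 cells) and 8.30% of cit members (46 cells), and G2/M-weighted cells 47.3% (133 cells) and 50.7% (281 cells). The rest lay between, 42.0% and 41.0%. All 4 selection genes were higher in G2/M-weighted than in S-weighted members of both libraries. The limit on their sum therefore bears on these shares, which do not give the phase mix of all dividing cells. Differences between genotypes were -2.37 points (-6.99 to 1.67) for S-weighted and 3.39 points (-3.77 to 10.5) for G2/M-weighted cells, and both intervals included 0.

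The median G2/M share was 0.642 in WT and 0.675 in cit. Within 0.05 of the lower limit lay 47 WT and 71 cit members, and within 0.05 of the upper limit 25 and 63, so the ranges had no gap between them. The median member had 37 S and 56 G2/M UMIs in WT and 32 and 62 in cit, against 3 and 4 or 5 in resting counterparts. Summed over resting counterparts, the S and G2/M lists held 665 and 1040 CPM in WT and 671 and 1094 CPM in cit. The G2/M list thus stood above the S list at rest as well, and a median share on that side is not particular to members. Every member carried at least 1 UMI of these lists. Module scores of the same lists placed 44.8% and 38.8% of members in S and 50.2% and 59.9% in G2/M. By these scores the G2/M share was 9.75 points higher in cit (2.62 to 16.8), an interval that excluded 0, unlike that of the G2/M-weighted range.

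**Figure D2:**
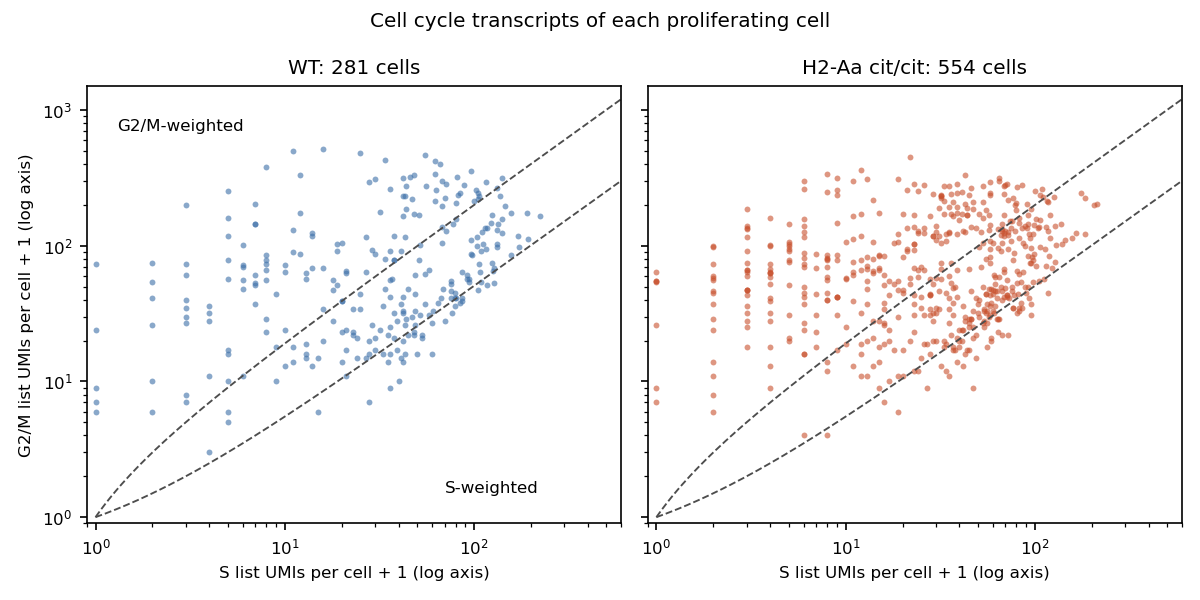
Each point is 1 proliferating cell outside the cDC1 lineage, with its S list UMIs plus 1 on the x axis and its G2/M list UMIs plus 1 on the y axis (log axes), WT on the left (281 cells) and cit on the right (554 cells). Dashed lines are the limits of 0.333 and 0.667 of the G2/M share. Points spread over both limits in both libraries with no gap, and 133 WT and 281 cit cells lie above the upper line.

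Phase was then set beside the lineage lists, with no test of the differences. Of members with at least 3 UMIs of the mature list, 38.8% in WT (26 of 67) and 29.3% in cit (17 of 58) were G2/M-weighted, against 50% (107 of 214) and 53.2% (264 of 496) of the other members. The intervals did not overlap in cit (18.1 to 42.7% against 48.7 to 57.7%) and overlapped in WT (27.1 to 51.5% against 43.1 to 56.9%). Members with cDC2 genes, at 47.7% and 51.7%, differed little from those without, at 46.5% and 46.7%. Proliferating cells with cDC1 genes were G2/M-weighted in 56.3% (44.0 to 68.1%) and 51.2% (40.0 to 62.3%), intervals that overlapped those of members.

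Genes that set the phase ranges changed in level along them by construction. Pola1, the catalytic subunit of DNA polymerase α and the S list gene of highest level, fell from 819 CPM in S-weighted to 232 CPM in G2/M-weighted WT members, and from 762 to 199 CPM in cit. Hmgb2, a chromatin protein and the G2/M list gene of highest level, went from 795 to 3426 CPM and from 588 to 2696 CPM. Ube2c, the ubiquitin-conjugating enzyme of the anaphase-promoting complex, had no UMI in the S-weighted members of either library, which allows up to 12.2 and 8.32 CPM at 3 counts per group. In G2/M-weighted members it stood at 486 and 426 CPM, at least 39.8-fold and 51.3-fold higher than those limits.

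Genes outside both lists, which did not set the ranges, were then read along them in the same cells. Of 11 spindle and cytokinesis genes measured, all 11 were higher in G2/M-weighted than in S-weighted members of both libraries with intervals that excluded 0, against 7.0% of 4073 genes outside the lists, among them Prc1, a microtubule bundler (28.5 and 324 CPM in WT, 38.8 and 323 CPM in cit). Of 11 replication fork genes, 7 were higher in S-weighted members of both libraries and none in G2/M-weighted ones, where 8.79% of those 4073 genes were higher in S-weighted members, such as Lig1, the ligase of Okazaki fragments (204 against 41.7 CPM, and 191 against 31.4 CPM). E2f1, the transcription factor of the G1 to S step, was at 126 against 7.45 CPM in WT and 150 against 11.5 CPM in cit.

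A list of histone supply and chaperone genes, not all of them histones, lay mostly on the G2/M side. Of its 17 genes outside the S and G2/M lists, 12 were higher in G2/M-weighted members of both libraries and 3 in S-weighted ones. Of the 4073 genes outside the lists, 7.0% and 8.79% were. Hist1h1b, a linker histone, went from 93.7 to 1137 CPM in WT and from 66.5 to 907 CPM in cit. Copies of histone genes are nearly identical, so reads may be split among them. All 4 selection genes were also higher in G2/M-weighted members, with Birc5 at 48.9 against 440 CPM and 19.4 against 398 CPM, whereas Pclaf was highest between the limits (625 and 647 CPM).

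**Figure D3:**
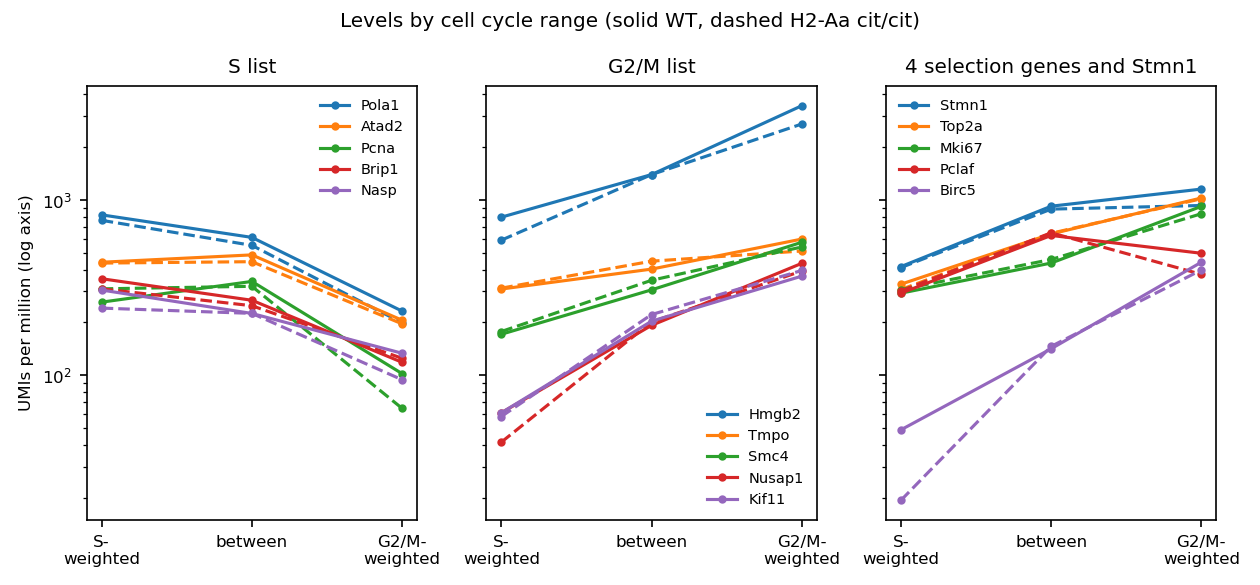
Levels in CPM (log axis) of the 5 S list genes and 5 G2/M list genes of highest level and of the 4 selection genes with Stmn1, in the 3 ranges of the G2/M share, with solid lines for WT and dashed lines for cit. Pola1 falls and Hmgb2 climbs toward the G2/M-weighted range in both libraries. Pclaf peaks between the limits, at 625 CPM in WT and 647 CPM in cit.

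Promoters of these genes were searched for letters that cell cycle factors are known to bind, in RefSeq sequences of 250 bases before to 50 bases after the transcription start (GRCm38.p6). Words were sought on both strands: TTTGAA, the CHR element bound by the DREAM and MuvB complexes, CCAAT, the NF-Y box, and the E2F words TTTCCCGC, TTTGGCGC, TTTGCCGC and TTTCGCGC. For the G2/M list, 44 of 51 genes had a promoter, and 65.3% of their 49 promoters held the CHR word and 75.5% CCAAT, against 17.9% and 37.4% of all 32851 promoters. An E2F word was in 6.12% of them and in 2.26% of all. For the S list only 31 of 43 genes had a promoter, under the 80% needed, so no share is given. A match is a description of letters and not of binding.

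A promoter of each kind is shown, from the list gene with the largest difference in level between S-weighted and G2/M-weighted members whose promoter held its word. Capitals mark the E2F word in Dtl, a substrate receptor of the CRL4 ubiquitin ligase with 224 CPM in S-weighted and 33.5 CPM in G2/M-weighted WT members (291 and 31.0 CPM in cit). They mark the CHR word and each CCAAT, some overlapping, on either strand in Ube2c. Dtl lies on the minus strand at chr1:191575495-191575794 with its word starting 8 bases before the transcription start, and Ube2c on the plus strand at chr2:164769679-164769978 with the CHR word, read as TTCAAA, starting 29 bases before the start.
Dtl: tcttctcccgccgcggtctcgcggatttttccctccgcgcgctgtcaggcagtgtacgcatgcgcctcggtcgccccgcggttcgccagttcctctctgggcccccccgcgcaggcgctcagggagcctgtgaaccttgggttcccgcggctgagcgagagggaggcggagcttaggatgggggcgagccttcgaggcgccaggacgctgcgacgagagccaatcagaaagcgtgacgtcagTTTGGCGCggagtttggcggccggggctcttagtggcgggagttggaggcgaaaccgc
Ube2c: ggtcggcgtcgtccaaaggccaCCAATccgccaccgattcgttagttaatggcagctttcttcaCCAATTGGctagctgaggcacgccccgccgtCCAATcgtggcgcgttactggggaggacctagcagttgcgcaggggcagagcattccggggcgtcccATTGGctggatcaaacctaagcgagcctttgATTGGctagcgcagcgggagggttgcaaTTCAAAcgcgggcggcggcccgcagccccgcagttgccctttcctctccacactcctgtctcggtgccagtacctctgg

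Members were compared with their resting counterparts within each library. Among 3979 genes measured at 50 CPM or more, 494 (12.4%) were at least 1.5-fold higher in members of both libraries and 228 (5.73%) at least 1.5-fold lower. All 29 S list genes and all 41 G2/M list genes that were measured were higher, with median log2 ratios of 3.20 in WT and 2.97 in cit for S and 4.71 and 4.46 for G2/M, against 0.05 and -0.01 over all genes. Cells were chosen for cycle genes, so these lists describe the choice.

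The 10 highest genes over rest outside the cell cycle lists describe the choice as well, since resting counterparts were taken with no UMI of the 4 cycle genes and genes this low at rest were measured through the members alone. Kif14, a kinesin of cytokinesis, was at 60.6 and 50.3 CPM in members against 0.399 and 0.189 CPM at rest, which came from 12 and 8 UMIs. Neil3, a glycosylase that repairs DNA crosslinks, was at 197 and 198 CPM against 1.33 and 1.25 CPM. The other 8 of the 10 highest were Aspm and Spag5 of the spindle pole, Depdc1a and Depdc1b, Shcbp1, Stil of the centriole, Kntc1 of the kinetochore and the noncoding transcript Lockd, with log2 ratios of 5.79 to 7.72.

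Genes of ribosome assembly and of respiration had smaller ratios than the cycle lists. Of 9 ribosome biogenesis genes, 5 were 1.5-fold higher in members of both libraries, with medians of 1.0 and 0.66 log2. Ncl, nucleolin, was at 464 and 439 CPM against 193 and 246 CPM at rest. Of 45 oxidative phosphorylation genes, 5 were higher in both and none lower, a share close to the 12.4% of all genes, with medians of 0.59 and 0.30. The median share of ribosomal protein UMIs was 13.3% and 16.4% in members and 9.54% and 15.4% at rest, and its part in these values was not tested.

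Genes lowest in members could meet the limit of 50 CPM through resting cells alone, as Cd63 did. Socs2 of the mature DC list was among the 10 lowest. Il4i1, an amino acid oxidase, was at 99.3 and 46.2 CPM against 393 and 171 CPM at rest, Cd63, a tetraspanin, at 38.4 and 11.5 CPM against 187 and 65.1 CPM, and Socs2, a cytokine signaling suppressor, at 53.4 and 20.5 CPM against 209 and 70.1 CPM. H2-M2, Slco5a1, Anxa3, Dkk2 and Atxn1 completed this end with the globins Hba-a1 and Hbb-bs, whose UMIs in WT members came from 1 cell (100% and 96.6%). Without the highest Scrublet scores, the WT ratios of both globins turned positive. Among CDK inhibitors and quiescence genes, 2 of 6 were lower in members of both libraries, among them Btg1, an antiproliferation gene (358 and 289 CPM against 743 and 514 CPM), and 2 were higher, against 5.73% and 12.4% of all genes.

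The genotypes were then compared among members. H2-Aa was at 4437 CPM in WT members, with a UMI in 98.2% of them, and at 56.0 CPM in cit members, with a UMI in 35.7%, the direction its label gives. The log2 ratio was -6.31 (-6.48 to -6.14), close to the -6.21 of resting counterparts. Of 4152 genes measured, 82 (1.97%) were at least 1.5-fold higher in cit and 131 (3.16%) at least 1.5-fold lower, with a median log2 ratio of -0.06 over all. Scaled on the median ratio, 105 were higher and 108 lower. The resting counterparts, from the same libraries, had 177 higher and 376 lower among 3921 genes, and 54 of the 82 and 99 of the 131 were past the same fold there (54 of 177 and 99 of 376).

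Cells of both libraries were chosen for UMIs of cycle genes, which bears on every cycle gene compared between genotypes. None of 32 S list genes and none of 43 G2/M list genes was past 1.5-fold, with median log2 ratios of -0.18 and -0.02. Of the S list ratios, 1 of 32 lay above 0, as did 2 of 20 for replication fork genes and 2 of 21 for histone supply, against 16 of 43 for the G2/M list and 1663 of the 4152 genes measured. Pcna, the replication clamp, stood at 219 CPM for WT members and 195 CPM for cit members, and Cdk1, the mitotic kinase, at 104 and 117 CPM. Among 19 cyclins, CDKs and their degradation factors, 2 D-type cyclins were higher in cit, against 1.97% of all genes measured. Ccnd3 was at 221 and 442 CPM (log2 ratio 1.0, 0.87 to 1.13) and Ccnd2 at 39.1 and 77.5 CPM (0.99, 0.68 to 1.31), while Ccnd1 was at 611 and 452 CPM (-0.44). Ccnd3 was also higher in resting cit cells, at 693 against 376 CPM.

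Genes of protein folding in the endoplasmic reticulum (ER) were higher in cit members. Of 32 measured, 17 were at least 1.5-fold higher and none lower, against 1.97% and 3.16% of all genes measured, with a median log2 ratio of 0.65. At 50 CPM in the mean of both libraries 13 of 27 were higher, with a median of 0.50. Hspa5, the ER chaperone BiP, stood at 230 CPM for WT members and 661 CPM for cit members (log2 ratio 1.52, 1.40 to 1.65). Sdf2l1, a BiP partner, was at 73.9 and 224 CPM, Manf, an ER-resident stress protein, at 80.3 and 235 CPM, and Pdia6, a disulfide isomerase, at 104 and 282 CPM. Their ratios in members (1.60, 1.55 and 1.44) were smaller than at rest (2.25, 2.13 and 2.01), and the list median at rest was 0.86 over 34 genes.

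The smaller ratio went with levels on both sides. In WT the ER list stood above rest in members, with a median log2 ratio of members over resting counterparts of 0.24, and in cit slightly below, at -0.09. Hsp90b1, the ER form of Hsp90, was at 217 CPM in WT members and 119 CPM in resting WT cells, and at 469 and 428 CPM in cit. S-weighted and G2/M-weighted members taken alone gave medians of genotype ratios of 0.62 and 0.66, close to the 0.65 of all members. Targets of ATF4 and CHOP, another arm of the ER stress response, had 3 of 20 listed genes measured and none past the fold. With no level limit, 18 had UMIs in both libraries, of which 16 lay above 0, 7 were at least 1.5-fold higher in cit and none lower. Of all 14728 genes with UMIs in both libraries, 40.2% lay above 0, 8.5% were at least 1.5-fold higher and 19.3% lower.

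Of 28 interferon-stimulated genes listed, 11 were measured, and 5 of these were at least 1.5-fold higher in cit members and none lower, against 1.97% and 3.16% of all genes measured, with a median log2 ratio of 0.56. Several reached the limit of 50 CPM through cit alone, and at 50 CPM in the mean of both libraries 2 of 7 were higher, with a median of 0.46. With no level limit, 25 listed genes had UMIs in both libraries, and all 25 ratios lay above 0, as did 40.2% of all genes. Isg15, a ubiquitin-like modifier, was at 48.8 and 113 CPM, Rtp4 at 26.5 and 68.7 CPM and Oasl2, of the oligoadenylate synthetase family, at 19.7 and 54.1 CPM. Ifi207, another interferon-inducible gene, was at 28.7 and 82.8 CPM. The median at rest was 0.38 over 12 genes.

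Of 11 MHC class II genes measured, H2-Aa alone was past 1.5-fold, and 8 of the 11 ratios lay above 0. Of all 4152 genes measured, 1.97% were at least 1.5-fold higher in cit and 3.16% lower, and 1663 ratios lay above 0. H2-Eb1, the β chain of I-E, was at 3891 and 5665 CPM (log2 ratio 0.54), H2-Ab1, the partner chain of H2-Aa, at 3951 and 5308 CPM (0.43), and Cd74, the invariant chain, at 10545 and 11690 CPM (0.15). MHC class I and loading genes had none of 18 past the fold, against the same 1.97% and 3.16% of all genes. Of 45 oxidative phosphorylation genes and 9 ribosome biogenesis genes, none was past it either. At those shares of all genes, lists of these sizes would hold few genes past the fold.

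Cd209a, a lectin of cDC2, had the highest ratio of the genes ranked, from 25.5 CPM in WT to 78.3 CPM in cit members (log2 ratio 1.62, 1.25 to 2.0), with a UMI in 12.1% and 25.6% of members. Members of both libraries held less of it than resting counterparts (77.3 and 164 CPM). Of 5 measured genes of the same cDC2 list, 2 were past 1.5-fold higher and none lower, against 1.97% and 3.16% of all genes measured, with a median of 0.14. With no level limit 2 of 7 were higher and 2 lower, against 8.5% and 19.3% of all genes. The other gene past the fold was Cd300a, an inhibitory receptor, at 264 and 396 CPM, while Sirpa had a ratio of -0.26. Creld2, an ER protein, and Zfp943, a zinc finger gene, completed the 10 highest with ratios of 1.35 and 1.34. The level limit could be met in either library, and 6 of these 10 lay under 50 CPM in WT and entered through cit alone, as 7 of the 10 lowest lay under it in cit and entered through WT.

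**Figure D4:**
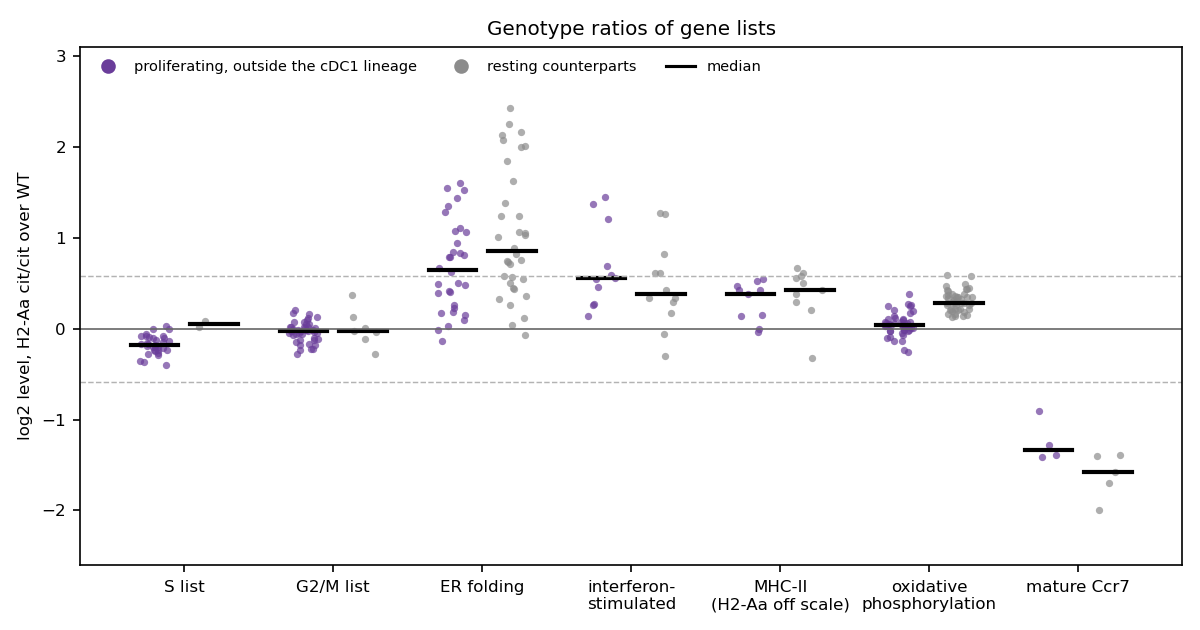
Log2 ratios of cit over WT for the measured genes of 7 lists, purple in proliferating cells outside the cDC1 lineage and grey in their resting counterparts, with black bars at the medians, dashed lines at 1.5-fold and H2-Aa off the scale. The S and G2/M lists lie between the dashed lines (medians -0.18 and -0.02 in members), ER folding genes reach 1.60 in members, and mature DC genes lie below -0.58.

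Mature DC genes were lower in cit members. All 4 measured genes of that list were past 1.5-fold, where 3.16% of all genes measured were lower, with a median log2 ratio of -1.33: Fscn1, an actin bundler, was at 138 and 57.1 CPM, and Apol7c, an apolipoprotein L family gene, at 192 and 72.3 CPM. The level limit could be met through WT alone, as by Socs2 (53.4 and 20.5 CPM). With no level limit, all 7 listed genes were at least 1.5-fold lower, with a median of -1.28, against 19.3% of all genes. At rest all 5 measured genes of the list were lower in cit as well, with a median of -1.58, where 376 of 3921 genes were lower. Without the 67 WT and 58 cit members that reached 3 UMIs of the mature list, 61 genes were lower and 87 higher, in place of 131 and 82. Atxn1 was at 84.6 and 23.5 CPM, Dpp10 at 287 and 78.7 CPM and Dkk2, a Wnt antagonist, at 53.4 and 14.6 CPM, and each was also lower in resting cit cells (log2 ratios of -2.51, -1.25 and -1.95).

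Single cells held much of 9 of the 131 lower genes, for which 1 cell held over 25% of the WT UMIs. Angpt1, an angiopoietin, had a log2 ratio of -2.74 with 80.1% of its WT UMIs in 1 cell, and -0.29 without the 4 members rich in megakaryocyte, granulocyte progenitor or plasma cell genes. Lyz2, the myeloid lysozyme, was at 167 and 27.2 CPM with 30.3% of its WT UMIs in 1 cell, and its ratio of -2.62 became 1.50 among members with cDC2 genes and no list of another lineage. The remaining names at this end were Gm42601, Mir99ahg, Gm47283 and Tmem132c, with ratios of -2.23, -1.96, -1.90 and -1.74. Gm47283 was seen in 74.0% of WT and 38.3% of cit members.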

How the data were processed

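Single-cell RNA-seq was made from sorted splenic DC, with 1 library per genotype and 3 pooled mice in each. The authors processed the reads with Cell Ranger 5.0.1 on mm10 and deposited UMI counts per gene and cell, which were used without normalization. All cells of both matrices entered. The members and the gene lists were chosen with earlier results of these data known. UMIs were summed over cells and given as CPM of the summed total. A gene was measured at 50 CPM in either library, for members over resting counterparts in either kind of cell of each library, and was called higher or lower at 1.5-fold. Intervals were Clopper-Pearson for shares, Newcombe for differences of shares, Poisson for levels and conditional binomial for ratios, while a count of 0 was limited at 3 counts. A list was reached at 3 summed UMIs in a cell. Named genes were the 10 at each end of a comparison (a UMI in at least 5% of members between genotypes; outside the cell cycle lists against rest), H2-Aa, and list genes of high level or ratio. Doublets were kept, and Scrublet scores served as an alternative that left out 505 WT and 1081 cit cells (38 and 77 members). Python 3.11.15, numpy 2.4.6, scipy 1.17.1, pandas 2.3.3 and scanpy 1.11.5 were used, and the scripts were tested on simulated data.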

Additional observations from a re-analysis of the deposited data

Results flagged for a closer look

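For 4 of the genes named between genotypes, the level in members lay above resting counterparts in WT and below them in cit with both counting intervals off 0, and the difference was not tested. The log2 ratio of members over resting counterparts was 0.40 in WT and -0.25 in cit for Sdf2l1. For Hspa5 it was 0.23 and -0.24. For Angpt1, of which 1 cell held 80.1% of the WT member UMIs, it was 1.95 and -0.77. For Tmem132c it was 0.28 and -0.51.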

How the results depend on the processing

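No paired analysis was possible because each genotype had 1 library, and for the same reason no replicate could be left out; library and genotype cannot be told apart. The share of members among cells was 4.24% in WT and 5.59% in cit with 3 or more cycle UMIs, 2.85% and 4.00% with 6 or more, 1.81% and 2.49% after thinning to 1500 UMIs, and 4.04% and 5.23% among cells under the Xcr1 and Clec9a limit, while the difference stayed between 0.681 and 1.35 points. With list limits of 2 and 5 UMIs, cDC2 genes were reached by 80.8% and 57.3% of WT and 86.1% and 67.3% of cit members, mature DC genes by 30.2% and 17.8% of WT members, and a list of another lineage by 36.3% and 12.5% of WT and 31.6% and 6.14% of cit members. Without the highest Scrublet scores, mature DC genes were reached by 16.5% and 6.29%, another lineage by 11.9% in cit, the ER list median was 0.55, and the WT ratios of members over rest turned to 0.89 for Hba-a1 and 1.58 for Hbb-bs. S-weighted shares were 44.8% and 38.8% by module scores, 22.1% and 19.5% with limits of 0.4 and 0.6, 7.17% and 6.07% with 6 or more cycle UMIs, and 12% in cit after thinning. G2/M-weighted shares in cit were 59.9% by module scores and 59.7% with limits of 0.4 and 0.6. At 10 CPM, 315 genes were higher and 604 lower in cit, and 1047 were higher and 560 lower in members than at rest. S-weighted members alone gave 605 and 731 genes and an S list median of -0.016, and G2/M-weighted members alone 154 higher genes. With the mean over cells of CPM, the G2/M list median was 0.17 and 397 genes were lower in members than at rest. Among members with cDC2 genes and no other lineage, Lyz2 turned to 1.50. Leaving out members with mature DC genes, an alternative chosen after seeing the data like those at 5000 UMIs, without 4 cells and at 50 CPM in the mean of both libraries, gave 61 lower genes. At that mean level the ER list median was 0.50 (13 of 27 genes higher), with 62 higher and 96 lower genes. The causes of these shifts were not tested. Of the remaining values that answer a comparison, 101 stayed within their interval, within 0.1 log2 for list medians or within 1.5 times the count. Among ratios of single genes and medians of other lists, 724 stayed within the same limits and 230 moved past them. A further 3 that were past 1.5-fold changed sign.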
